A study of Mus musculus with 4 samples.

Results

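Abundant noncoding RNAs of the cell nucleus were followed in mouse small intestinal (SI) organoids that overexpressed miR-181a-5p. The genes were the 9 listed by symbol as Rn7sk, Rpph1, Rmrp, Terc, Malat1, Neat1, Snhg1, Snhg12 and Gas5. They matched 10 of the 55487 gene identifiers in the deposited tables, because Rmrp had 2. They fell into 3 classes, namely RNAs without a poly(A) tail (Rn7sk, Rpph1, Rmrp and Terc), long noncoding RNAs (lncRNAs) kept in the nucleus (Malat1 and Neat1), and spliced host genes of small nucleolar RNAs (Snhg1, Snhg12 and Gas5).

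SI organoids are cultures of intestinal epithelium grown from isolated crypts. Those of the mimic control group (replicates 1 and 2) were infected with a lentivirus carrying a miRNA mimic control, and those of the miR-181a-5p mimic group (replicates 3 and 4) with one carrying the miR-181a-5p mimic. Both groups were held in puromycin at 2 μg/ml, so the selection was common to them. Mature miR-181a-5p was not measured in these libraries. Mouse strain and age were not given for these cultures, and the sources used here do not say whether libraries of 1 group came from separate infections, so that the spread between 2 libraries may be technical.

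RNAs such as 7SK and the RNAs of RNase P and RNase MRP are transcribed by RNA polymerase III, end without a poly(A) tail and work inside RNA-protein particles. The 3′ ends of Malat1 and of the long form of Neat1 are made by RNase P cleavage instead of polyadenylation, whereas the short form of Neat1 carries a poly(A) tail. snoRNA host genes are transcribed by RNA polymerase II, and their introns are trimmed into snoRNAs, which guide the modification of ribosomal RNA, while the spliced, polyadenylated host RNA is often removed by nonsense-mediated decay. A library made from poly(A) RNA and one made from all RNA but ribosomal RNA therefore hold these classes in different amounts. The sample labels of these libraries named poly(A) enrichment, and the study's supplemental methods named depletion of ribosomal RNA.

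The annotated 3′ ends are shown because a poly(A) signal, where there is one, is read from these letters. Each line gives the last 45 bases of 1 GENCODE transcript (release 21 for mouse, GRCm38), 5′ to 3′, with a poly(A) signal (AATAAA or ATTAAA, searched on the transcript's own strand) in capitals. The ends lie at chr9:78175303-78175347 (Rn7sk), chr14:50807449-50807493 (Rpph1), chr4:43492783-43492827 (Rmrp), chr3:96414437-96414481 (Terc), chr19:5795690-5795734 (Malat1), chr19:5824708-5824752 (long Neat1) and chr19:5842307-5842351 (short Neat1), all on the minus strand, and at chr19:8726399-8726443 (Snhg1), chr4:132310978-132311022 (Snhg12) and chr1:161038493-161038537 (Gas5), on the plus strand.
Rn7sk: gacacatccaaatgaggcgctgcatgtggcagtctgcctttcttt
Rpph1: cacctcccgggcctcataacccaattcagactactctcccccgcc
Rmrp: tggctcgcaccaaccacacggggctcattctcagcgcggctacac
Terc: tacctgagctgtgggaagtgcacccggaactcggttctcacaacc
Malat1: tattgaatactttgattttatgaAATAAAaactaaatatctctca
Neat1, long: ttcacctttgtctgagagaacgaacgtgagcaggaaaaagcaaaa
Neat1, short: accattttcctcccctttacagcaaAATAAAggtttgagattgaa
Snhg1: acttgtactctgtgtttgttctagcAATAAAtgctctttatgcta
Snhg12: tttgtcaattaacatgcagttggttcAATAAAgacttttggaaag
Gas5: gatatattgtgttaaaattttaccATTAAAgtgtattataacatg

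None of the 4 RNAs without a tail had either signal in this window. For each of the 3 snoRNA hosts 1 picked form is shown, of 18 annotated for Snhg1, 10 for Snhg12 and 25 for Gas5. Each of these 3 forms had a signal, beginning 19 to 21 bases before the end. This does not cover the other forms of the hosts, and the Snhg12 form shown is not the one with the most exons. The short form of Neat1 had AATAAA 20 bases before its end and the long form had none. The annotated end of Malat1 also held AATAAA, 22 bases before the end. Of the 13090 protein-coding genes tested, 72.5% had such a signal within the last 45 bases of their longest transcript, and of 1549 tested lncRNA genes 52.6% did. Because these shares use the longest transcript, they are not a like background for the picked forms of the hosts. A signal in the letters is a description and does not show that an RNA was polyadenylated in these cells.

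The mature mimic sequence is given next, from RefSeq on GRCm38, where it is encoded at chr1:137966468-137966490 and chr2:38852741-38852763. Its seed, bases 2 to 8, is in capitals.
miR-181a-5p: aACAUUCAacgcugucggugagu

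The seed is complementary to TGAATGT, and these letters were searched on the transcript strand of every annotated transcript of the 10 genes. Among the spliced or single-exon forms, only Malat1 and Neat1 held them. Malat1 had 2 matches, at positions 3255 and 3935 of its 6983-base transcript, and Neat1 had 3, at positions 1301, 1314 and 16575 of its 20771-base transcript. The first Neat1 window, at chr19:5844149-5844188, holds a pair of matches and lies in the stretch that the short and the long form share. The other windows lie at chr19:5828888-5828914 for Neat1 and at chr19:5799402-5799428 and chr19:5798722-5798748 for Malat1, all on the minus strand.
Neat1, first window: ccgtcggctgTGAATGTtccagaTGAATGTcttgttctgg
Neat1, second window: aagacctaccTGAATGTcaggatactg
Malat1, first window: taattcagccTGAATGTcttttagagg
Malat1, second window: gtagagctgtTGAATGTttgcagctgg

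In Gas5 and Snhg1 the letters occurred in 9 and 2 transcripts, all of them annotated as retaining an intron. Rn7sk, Rpph1, Rmrp, Terc and Snhg12 had no match. Of the 3023 tested genes whose longest transcript had at least 5000 bases, 51.9% held the letters, so their presence in RNAs as long as Malat1 and Neat1 was common.

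The 4 libraries held 31104884 to 38111731 expected counts, RSEM's estimates of the reads per gene, of which 17155 genes were tested. Of these, 3.57% passed edgeR's quasi-likelihood test at a Benjamini-Hochberg adjusted p of 0.05 (1.28% higher and 2.29% lower with the mimic), and 2.06% also had a fold change of at least 2 (0.589% higher and 1.47% lower). Ribosomal RNA took 0.442% of the counts in control replicate 1 and 0.0848% to 0.119% in the other 3 libraries. The median log2 fold change was -0.01 over all genes tested and -0.23 over the 1765 lncRNA genes among them, of which 7 rose and 32 fell. It was -0.06 over the 63 lncRNA genes with at least 20 normalized CPM, which are counts scaled to a common library size after TMM correction. The epithelial label was checked against markers. Epcam, which encodes an epithelial adhesion protein, had 825 to 890 normalized CPM, whereas the 12 mesenchymal, endothelial and leukocyte markers summed to 3.80 to 4.77 and Col1a2, Col3a1 and Cdh5 among them were at 0 counts. Of 13 epithelial markers 1 passed the quasi-likelihood test, Lgr5, a marker of intestinal stem cells, with 401 and 312 normalized CPM in control organoids against 98.0 and 176 in mimic organoids (log2 fold change -1.38, SE 0.26, adjusted p 0.0369). DESeq2 also passed Krt18, lower, and Cdx2, higher, and edgeR's exact test also Krt18. Fewer cells of a type and less RNA per cell cannot be told apart in bulk libraries.

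None of the 9 noncoding RNA genes tested passed the threshold in the comparison of mimic with control organoids, against 3.57% of all genes, and Terc could not be tested because it had no counts. At an unadjusted p under 0.05 there were 3, against 24.8% of all genes. Neat1 was the only one of these on the higher side, where 11.8% of all genes lay, and Malat1 and the longer Rmrp gene were on the lower side, where 13.0% lay. The same 3 genes had groups that did not overlap in normalized CPM, as did 58.4% of all genes (28.9% higher and 29.5% lower). With 9 genes, neither count says more about the noncoding RNAs than these backgrounds do. DESeq2 passed Neat1 and Malat1 (7.75% of all genes), and edgeR's exact test passed Neat1 (10.4%).

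**Figure D1:**
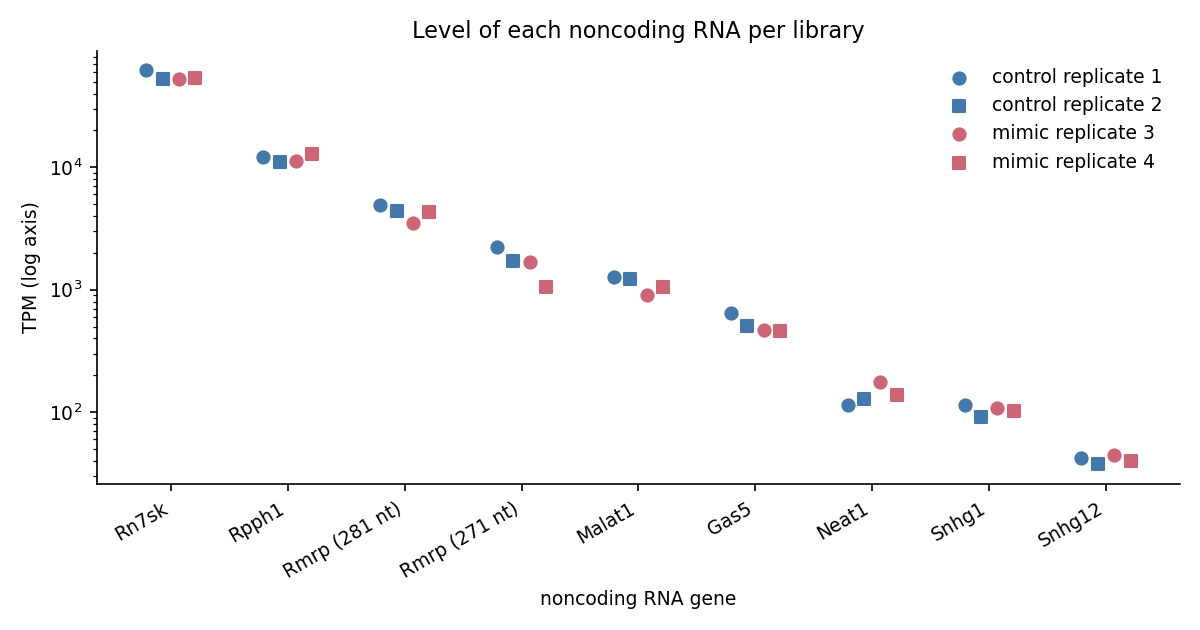
Level of each noncoding RNA gene in TPM (log axis), 1 point per library, with circles and squares for the 2 replicates of the control (blue) and mimic (red) groups. The levels run from about 41.0 TPM for Snhg12 to 55151 TPM for Rn7sk as means of 4 libraries, and ranges overlap only between the shorter Rmrp gene and Malat1 and between Neat1 and Snhg1 among neighbours in the order.

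Among the members with counts, Rn7sk, Rpph1 and the longer Rmrp gene, all without a tail, had the highest TPM in every library. TPM, the deposited abundance unit, divides the reads by transcript length, so that levels of different genes can be set side by side. The mean over 4 libraries was 55151 TPM for Rn7sk, 11821 for Rpph1, 4282 and 1674 for the 281-base and 271-base Rmrp genes, 1114 for Malat1, 523 for Gas5, 140 for Neat1, 104 for Snhg1 and 41.0 for Snhg12. All neighbours in this order were apart in every library except the 271-base Rmrp gene and Malat1, and Neat1 and Snhg1, whose ranges overlapped. Together the genes took 2.22% and 1.86% of all counts in control organoids against 1.92% and 1.78% in mimic organoids, and Rn7sk alone was 53.5% to 55.6% of that share.

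The length correction raised the short RNAs in this scale. The ratio of count to TPM, scaled per library, gives the effective length that was used for each gene. The scale was set on 474 genes with a single transcript of at least 1000 bases and at least 500 counts in every library. Their centre was thus fixed in advance at the length less 1 read, and 98.1% of them lay within 5% of it in all libraries. For Rn7sk, which has 331 bases, this length was 234 to 236 bases. Divided by full length instead, the values of the 4 short genes would be 1.42 to 1.57 times lower, those of the hosts 1.11 to 1.16 times and those of Malat1 and Neat1 at most 1.02 times. These values were not rescaled to a common total, so they are no longer TPM and serve only to order the genes. The first 3 places would stay as they are, at 38775, 8180 and 2787, whereas the 271-base Rmrp gene, at 1068, would fall below Malat1, at 1092.

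**Figure D2:**
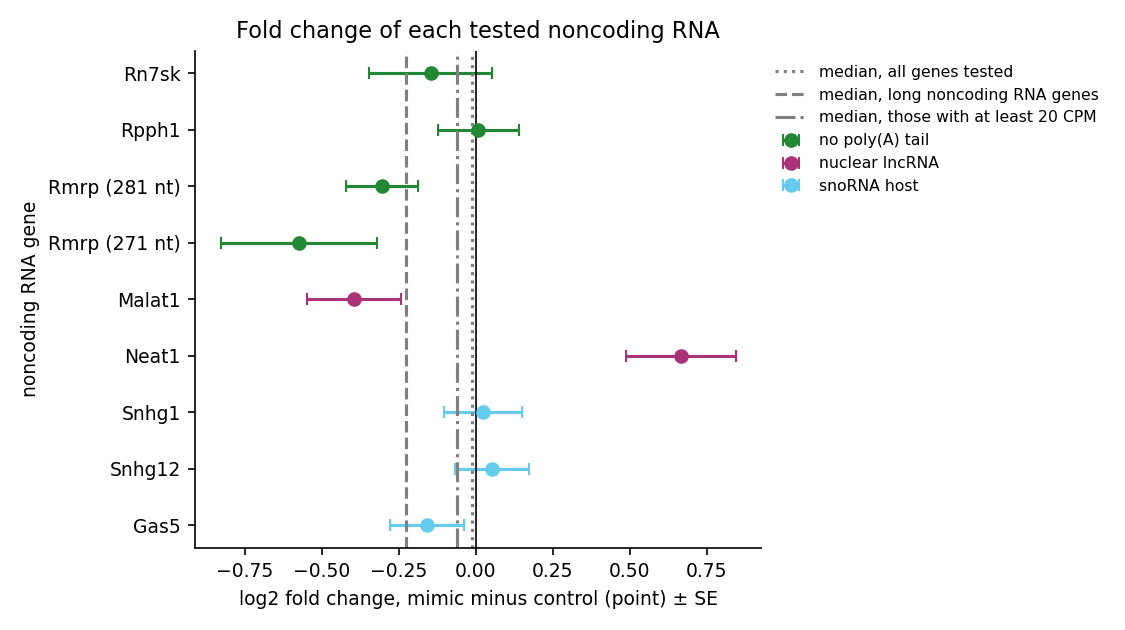
log2 fold change (mimic minus control) of the 9 noncoding RNA genes tested, with bars of 1 SE and colours for the 3 classes; the dotted, dashed and dash-dotted lines are the medians of all genes, of lncRNA genes and of lncRNA genes with at least 20 normalized CPM (-0.01, -0.23 and -0.06). Neat1 lies farthest to the right at 0.67 and the 271-base Rmrp gene farthest to the left at -0.57, and no point passed the adjusted threshold.

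Rn7sk (misc_RNA, chr9:78175303-78175633) is the 7SK RNA, which holds the elongation factor P-TEFb inactive together with Hexim1, Larp7 and Mepce. It had 12254.5 and 10201 normalized CPM in control organoids against 10549 and 9740 in mimic organoids. The groups overlapped, with control replicate 1 the highest and the other 3 libraries close to each other. The log2 fold change was -0.15 (SE 0.20, adjusted p 0.689), and without control replicate 1 it was -0.01. The library highest in Rn7sk was also the one with the highest share of ribosomal RNA, and the part of that difference in the value was not tested.

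Rpph1 (ribozyme, chr14:50807449-50807767) is the RNA subunit of RNase P, which trims the 5′ ends of tRNAs. It had 2266 and 2056 normalized CPM in control organoids against 2133 and 2215 in mimic organoids. The mimic libraries lay inside the range of the controls, and the log2 fold change was 0.01 (SE 0.13, adjusted p 0.975). Rpph1 shares 284 bases with Ccnb1ip1 on the same strand, which had at most 10.6 counts, so that few reads were assigned to that gene.

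Rmrp, the RNA of RNase MRP, which cleaves precursors of ribosomal RNA, has 2 annotated genes at 1 locus. The 281-base gene (ENSMUSG00000115420, chr4:43492783-43493063) contains the whole of the 271-base gene (ENSMUSG00000088088) and 5 more bases at each end. The sequence is shown because these 10 bases, in capitals, are all by which the counting could tell the genes apart.
Rmrp: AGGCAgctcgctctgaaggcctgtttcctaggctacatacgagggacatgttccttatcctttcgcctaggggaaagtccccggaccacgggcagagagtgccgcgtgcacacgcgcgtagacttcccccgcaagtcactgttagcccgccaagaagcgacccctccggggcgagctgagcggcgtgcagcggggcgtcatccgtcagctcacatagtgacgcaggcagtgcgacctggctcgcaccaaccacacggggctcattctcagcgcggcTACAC

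The 281-base gene had 764 and 677 normalized CPM in control organoids against 553 and 615 in mimic organoids, so that both mimic libraries lay below both controls (log2 fold change -0.30, SE 0.12, adjusted p 0.166). The 271-base gene had 332 and 250 in control organoids against 250 and 141 in mimic organoids, and its groups overlapped, with mimic replicate 4 the lowest (log2 fold change -0.57, SE 0.25, adjusted p 0.214). The ratio of the shorter to the longer gene was 0.435 and 0.369 in control organoids against 0.453 and 0.229 in mimic organoids. Without mimic replicate 3 the log2 fold change of the shorter gene was -1.04, with an adjusted p of 0.0137, against 2.04% of all genes that passed in that fit. Because the reads of the 2 genes are divided by estimation, the sum was also tested, an alternative chosen after the data were seen. Summed, Rmrp had 1097 and 926 normalized CPM in control organoids against 803 and 755 in mimic organoids (log2 fold change -0.38, SE 0.12, adjusted p 0.125). Reads from Ccdc107, on the opposite strand, overlap 164 bases of the locus, and no source used here says whether the counting used strand.

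Terc (misc_RNA, chr3:96414437-96414859), the template RNA of telomerase, had 0 counts in all 4 libraries. A count of 0 allows up to 3 counts per library, or 0.0782 to 0.0968 normalized CPM, and covers counting error only. Whether the reference that the authors mapped to could take up reads of Terc was not tested, so the 0 may not be a measurement of the RNA, and the limit holds only if it was. The reverse transcriptase gene Tert had 9.21 and 8.74 normalized CPM in control organoids against 12.1 and 11.0 in mimic organoids (log2 fold change 0.36, SE 0.15, adjusted p 0.188).

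**Figure D3:**
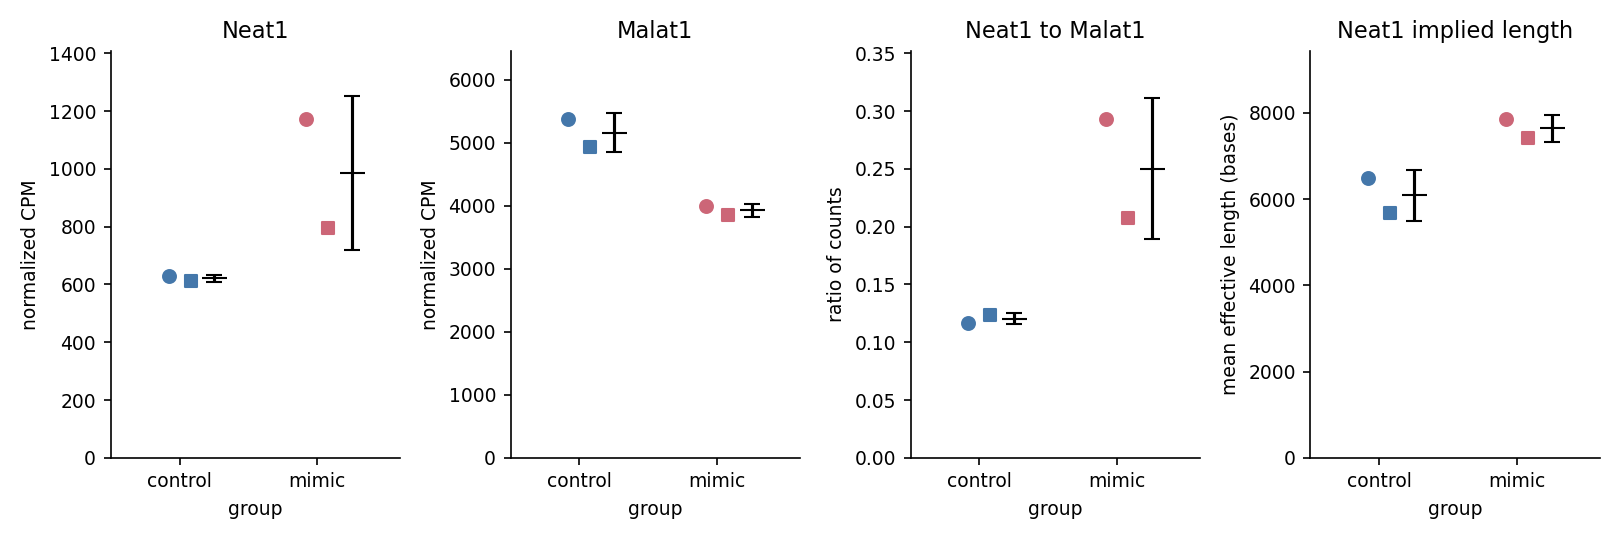
Neat1 and Malat1 in normalized CPM, their ratio of counts, and the mean effective length implied for Neat1, in bases; circles and squares are the 2 libraries of each group and black marks give mean and SD. The mimic libraries lie above the controls for Neat1, for the ratio (0.207 and 0.294 against 0.117 and 0.124) and for the length, and below them for Malat1.

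The lncRNAs of the nucleus differed in sign. Malat1 (lincRNA, ENSMUSG00000092341, chr19:5795690-5802672), a resident of nuclear speckles, had 5380 and 4937 normalized CPM in control organoids against 3999 and 3847 in mimic organoids. Both mimic libraries were below both controls, and the log2 fold change was -0.39 (SE 0.15, adjusted p 0.169). DESeq2 gave an adjusted p of 0.0111, and without control replicate 2 edgeR gave 0.0489 (13.0% of all genes passed in that fit). Over the alternatives the log2 fold change ran from -0.45 to -0.34 and the adjusted p from 0.0111 to 0.649.

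Neat1 (lincRNA, ENSMUSG00000092274, chr19:5824708-5845478), the scaffold of paraspeckles, had 630 and 612 normalized CPM in control organoids against 1174 and 797 in mimic organoids. Mimic replicate 3 stood well above the other 3 libraries, and mimic replicate 4 also lay above both controls. The log2 fold change was 0.67 (SE 0.18, adjusted p 0.0820), with the lowest p of the set (0.00626). Without mimic replicate 3 it was 0.37 (adjusted p 0.422), and without mimic replicate 4 it was 0.92 (adjusted p 0.0150, in a fit that passed 4.61% of all genes). DESeq2 gave an adjusted p of 0.00560 and edgeR's exact test 0.0130. With control replicate 1 left out, where 3.42% of all genes passed, the log2 fold change was 0.68 (adjusted p 0.101).

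Within each library the ratio of Neat1 to Malat1 counts, which needs no scaling between libraries, was 0.117 and 0.124 in control organoids against 0.294 and 0.207 in mimic organoids. The mean ratio was 2.08-fold higher with the mimic. Without mimic replicate 3 it was 1.72-fold higher. Because Neat1 was higher and Malat1 lower with the mimic, the rise of the ratio follows from the values above and is no separate result. The ratio was not among the planned comparisons, and no background of ratios between other genes was taken. The ratio of Rpph1 to Rn7sk in TPM also had groups that did not overlap, with a mean 1.11-fold higher. In TPM the mean ratio was 1.68-fold higher, and 1.36-fold without mimic replicate 3. The smallest p that permuting 4 libraries can give is 0.333 in an exact test, and the ratio was not tested in another way.

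Neat1 counts and Neat1 TPM differed in size. In TPM, Neat1 had 114 and 129 in control organoids against 177 and 139 in mimic organoids, and limma on log2(TPM + 1) gave a change of 0.37 (adjusted p 0.247) on that scale. The length implied for Neat1 by count and TPM was 6500 and 5668 bases in control organoids against 7865 and 7413 in mimic organoids. The annotation lists Neat1 transcripts of 711, 1030, 3004 and 20771 bases, so this length is a mean over forms, weighted by RSEM's estimates. It was 1.26 times longer with the mimic, and the groups did not overlap. Of 9667 genes with several transcripts, 0.445% differed by as much in either direction, and 41.1% had groups that did not overlap. These genes were not matched for the spread of their transcript lengths, which is wide for Neat1, so the shares are not a like background. Reads that both forms share can be assigned to either, so the estimate is indirect.

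Gas5 was the other gene with several transcripts whose groups were apart in implied length, as were those of 41.1% of the 9667 genes. It had 546 and 588 bases in control organoids against 657 and 646 in mimic organoids (1.15 times), a change larger than in 96.9% of those genes. The implied lengths of Malat1, Snhg1 and Snhg12 overlapped between groups, with means 1.02, 1.03 and 1.03 times longer with the mimic. For the single-transcript genes the implied length is fixed by the annotation and carries no information on forms.

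The groups of all 3 snoRNA hosts overlapped in normalized CPM. Gas5 (ENSMUSG00000053332, chr1:161034422-161038539), a host that is known to accumulate when growth is arrested, had 299 and 251 normalized CPM in control organoids against 261 and 232 in mimic organoids (log2 fold change -0.16, SE 0.12, adjusted p 0.446). The groups overlapped in this unit, whereas in TPM the controls (645 and 510) were above the mimic libraries (472 and 464), with an adjusted p of 0.316 by limma. Zbtb37, on the opposite strand, overlaps 428 bases of Gas5.

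Snhg1 (ENSMUSG00000108414, chr19:8723475-8726443) had 80.7 and 68.7 normalized CPM in control organoids against 82.5 and 69.3 in mimic organoids, so the libraries of each group differed more than the groups did. Its log2 fold change was 0.02 (SE 0.13, adjusted p 0.931). Snhg12 (ENSMUSG00000086290, chr4:132308623-132311024) had 29.7 and 27.5 in control organoids against 31.7 and 27.7 in mimic organoids (log2 fold change 0.05, SE 0.12, adjusted p 0.818). The signs of Snhg1, Snhg12 and Rpph1 turned under some alternatives.

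By class, the median log2 fold change was -0.23 for the 4 tested genes without a tail, 0.14 for the 2 nuclear lncRNAs, which lay on either side of 0, and 0.02 for the 3 hosts, beside -0.01 over all genes. The 4 genes include both overlapping Rmrp genes, so that RNA enters the median as 2 values. With Rmrp summed, the values without a tail were -0.15 for Rn7sk, 0.01 for Rpph1 and -0.38 for Rmrp. As shares of all counts, the RNAs without a tail took 1.57% and 1.29% in control organoids against 1.36% and 1.28% in mimic organoids, the nuclear lncRNAs 0.605% and 0.542% against 0.521% and 0.468%, and the hosts 0.0412% and 0.0340% against 0.0378% and 0.0331%. The groups overlapped for the RNAs without a tail and for the hosts and were apart for the lncRNAs, of which Malat1 makes up most. In all 3 classes control replicate 1 had the largest share.

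**Figure D4:**
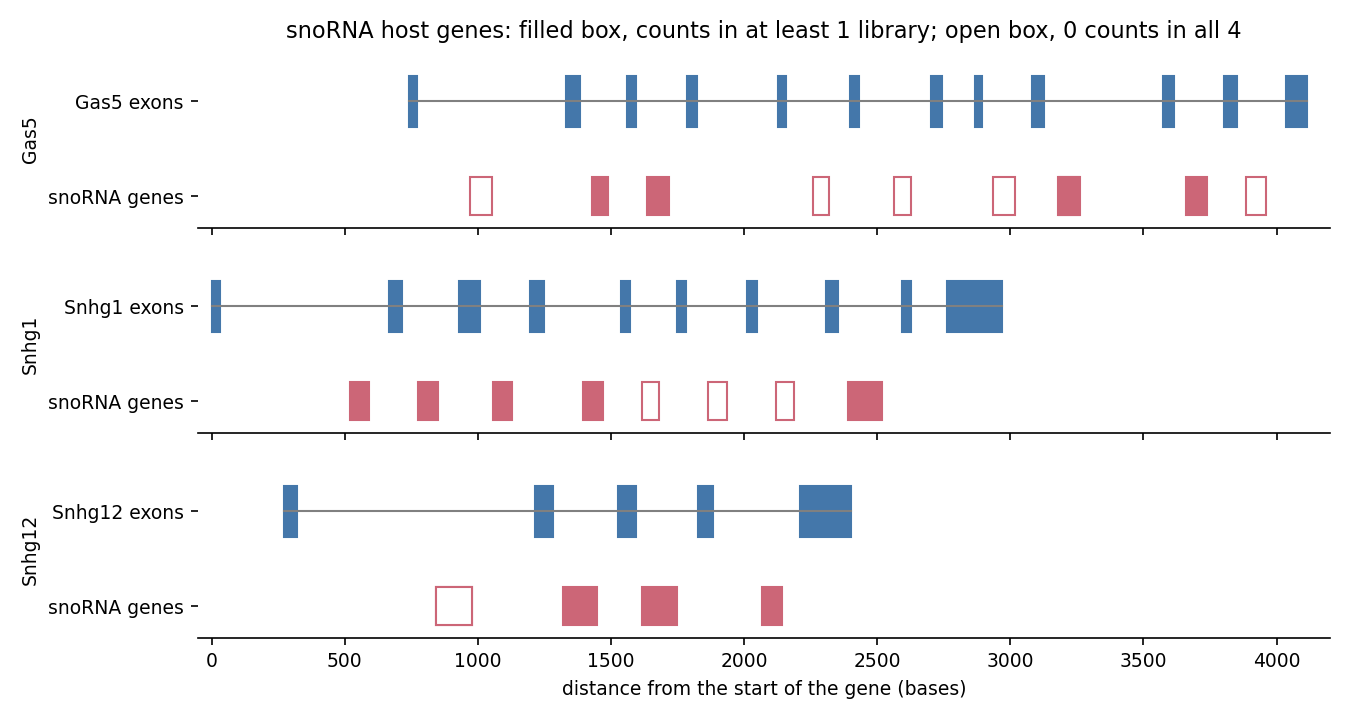
Exons of the annotated form with the most exons (blue) and snoRNA genes (red) of Gas5, Snhg1 and Snhg12 by distance from the gene's start, in bases. Filled red boxes had counts in at least 1 library and open ones had 0 in all 4; a pair of overlapping annotations in Gas5 and another in Snhg12 are drawn on top of each other, and each snoRNA lies between exons.

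The snoRNAs that these hosts release were hardly counted. The annotation places 10 snoRNA genes in Gas5, 8 in Snhg1 and 5 in Snhg12, between the 12, 10 and 5 exons of the most finely spliced form. Their lengths are 60 to 137 bases, and 11 of the 23 had 0 counts in all 4 libraries. Summed over a host, they reached 0.0949% to 4.17% of the host's own counts. Gm22357 held most of those in Gas5, with 243 and 138 counts in control organoids against 323 and 158 in mimic organoids. Snord22, a 126-base snoRNA in Snhg1, had 65.1 and 40.4 counts in control organoids against 30.2 and 17.1 in mimic organoids (log2 fold change -1.09, SE 0.39, adjusted p 0.150). Reads had 100 bases before trimming, more than most of these snoRNAs have.

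**Figure D5:**
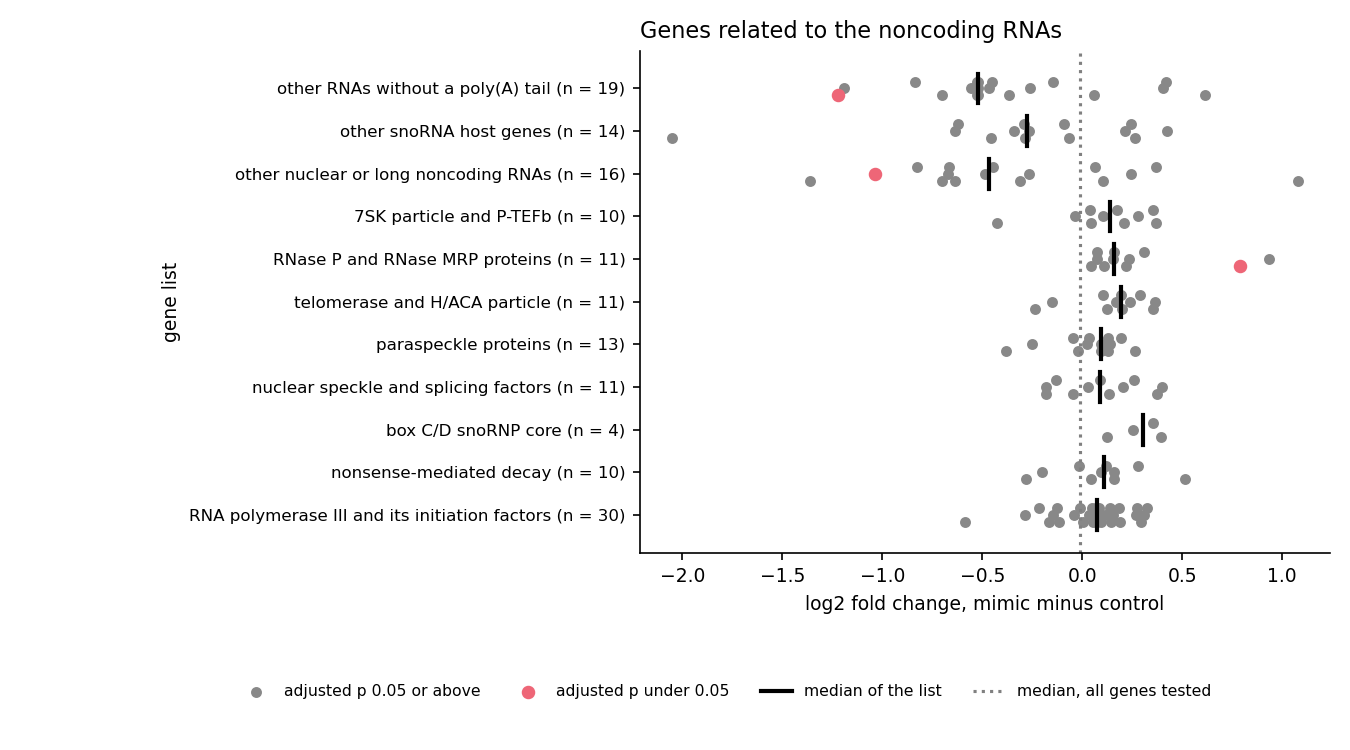
log2 fold change (mimic minus control) of each tested gene in 11 lists related to the noncoding RNAs, 1 point per gene, with the list's median as a black bar and genes at an adjusted p under 0.05 in red. The 3 lists of other noncoding RNAs have medians below 0 (-0.52, -0.27 and -0.47), and the 8 protein lists have medians between 0.07 and 0.30.

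Related noncoding RNAs were examined from lists, whose counts are to be read beside the shares over all genes. At an unadjusted p under 0.05, 11.8% of all genes were higher and 13.0% lower. The shares that passed were 3.57% in the quasi-likelihood test, 7.75% in DESeq2 and 10.4% in the exact test. Of 19 other tested RNAs without a tail, 1 fell and none rose in the quasi-likelihood test, with a median log2 fold change of -0.52 (6 were lower at an unadjusted p under 0.05). The gene that fell was Rnu1a1, a gene of the U1 spliceosomal RNA, with 4.66 and 3.66 normalized CPM in control organoids against 1.90 and 1.65 in mimic organoids (log2 fold change -1.22, SE 0.25, adjusted p 0.0471). With 1 library left out, the log2 fold change of Rnu1a1 ran from -1.38 to -1.04. It passed without control replicate 2, but not without mimic replicate 3, mimic replicate 4 or control replicate 1. U1 has near-identical gene copies, among which reads can be divided. Rn7s1 and Rn7s2, copies of the 7SL RNA of the signal recognition particle, had identical counts, and summed (added after the data were seen) they gave 25671 and 23106 normalized CPM in control organoids against 17988 and 15926 in mimic organoids (log2 fold change -0.52, SE 0.23, adjusted p 0.217). DESeq2 passed 4 genes of the list, Rn7s1, Rn7s2, Rnu1a1 and Snora73b, and the exact test also Snord17, all lower. Rnu3b1, Rnu3b3 and Rnu3b4 also had counts identical to each other, and their log2 fold change of -0.52 is the median of the list. Rn7s1 and Rn7s2 are both among the 6 genes lower at an unadjusted p under 0.05. Sharing of reads among copies leaves the 19 genes fewer than 19 separate measurements.

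Of 14 other snoRNA hosts none passed (5 were lower at an unadjusted p under 0.05, and the median was -0.27). DESeq2 passed 1 of them, Epb41l4aos, and edgeR's exact test 2, Epb41l4aos and Snhg11, all lower. Zfas1, the host with the highest count, had 99.5 and 72.6 normalized CPM in control organoids against 75.2 and 65.5 in mimic organoids (log2 fold change -0.29, adjusted p 0.291). Of 16 other lncRNAs, 1 fell and none rose in the quasi-likelihood test (3 were higher and 7 lower at an unadjusted p under 0.05, and the median was -0.47). DESeq2 passed 3, Airn, Firre and Jpx, and the exact test also Kcnq1ot1, all lower. The gene that fell was Airn, the antisense RNA of the imprinted Igf2r locus, with 10.3 and 9.16 normalized CPM in control organoids against 4.28 and 5.20 in mimic organoids (log2 fold change -1.03, SE 0.19, adjusted p 0.0336). With 1 library left out, the log2 fold change of Airn ran from -1.18 to -0.90. It passed without mimic replicate 4 or control replicate 2, but not without mimic replicate 3 or control replicate 1.

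The lists of protein partners had medians above 0, unlike the lists of other noncoding RNAs. Among the noncoding RNAs whose partners these are, Neat1 (0.67), Rpph1 (0.01), Snhg1 (0.02) and Snhg12 (0.05) also had log2 fold changes above 0. Those of Rn7sk (-0.15), both Rmrp genes (-0.30 and -0.57), Malat1 (-0.39) and Gas5 (-0.16) were below 0. The signs of Rpph1, Snhg1 and Snhg12 were not stable under the alternatives. For 7SK, none of 10 genes of its particle and of P-TEFb passed in edgeR's quasi-likelihood test, its exact test or DESeq2, and 3 were higher at an unadjusted p under 0.05 (median 0.14). Larp7, which binds the 3′ end of 7SK, had 28.1 and 27.6 normalized CPM in control organoids against 38.3 and 33.6 in mimic organoids (log2 fold change 0.37, SE 0.12, adjusted p 0.113). Hexim2, an inhibitor of P-TEFb, had 2.40 and 2.61 in control organoids against 2.11 and 1.63 in mimic organoids (log2 fold change -0.43, SE 0.26, adjusted p 0.349).

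For RNase P and RNase MRP, which share most of their proteins, 1 of 11 genes rose and none fell in the quasi-likelihood test, and all 11 had log2 fold changes above 0 (median 0.16). The gene was Pop5, a subunit of both enzymes, with 11.7 and 12.7 normalized CPM in control organoids against 24.1 and 18.2 in mimic organoids (log2 fold change 0.79, SE 0.17, adjusted p 0.0496). With 1 library left out, the log2 fold change of Pop5 ran from 0.58 to 0.98. It passed without mimic replicate 4 or control replicate 2, but not without mimic replicate 3 or control replicate 1. The log2 fold changes of the RNA subunits were 0.01 for Rpph1 and -0.38 for summed Rmrp. DESeq2 and the exact test each passed 2 of these genes, Pop5 and Rpp25, both higher. Rpp25, a protein subunit, had 2.56 and 2.45 normalized CPM in control organoids against 5.30 and 4.30 in mimic organoids (log2 fold change 0.93, SE 0.23, adjusted p 0.0678 in the quasi-likelihood test). None of 11 genes of telomerase and the H/ACA particle passed in any of these tests, with 3 higher at an unadjusted p under 0.05 (median 0.20), and Dkc1, the pseudouridine synthase of that particle, had 76.7 and 79.8 in control organoids against 98.8 and 92.3 in mimic organoids (log2 fold change 0.29, SE 0.10, adjusted p 0.125).

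None of the 13 paraspeckle genes passed in any of the 3 tests, and at an unadjusted p under 0.05 there was 1 in each direction (median 0.09). Log2 fold changes were above 0, the sign of Neat1, for 9 of them and below 0 for 4. Tardbp, the 1 higher at that p, had 234 and 225 normalized CPM in control organoids against 296 and 255 in mimic organoids (log2 fold change 0.26, SE 0.11, adjusted p 0.185). Pspc1, a core paraspeckle protein, had 36.9 and 33.4 normalized CPM in control organoids against 25.6 and 28.4 in mimic organoids (log2 fold change -0.38, SE 0.12, adjusted p 0.111), a sign opposite to that of Neat1. Nono, another core protein, had 398 and 356 against 413 and 392 (log2 fold change 0.10, adjusted p 0.603). None of 11 nuclear speckle and splicing genes passed in the quasi-likelihood test (3 were higher at an unadjusted p under 0.05, and the median was 0.09), whereas DESeq2 and the exact test each passed 2, Srsf1 and Srsf2, both higher. Both encode splicing factors, and Srsf1 had the largest difference, with 324 and 330 normalized CPM in control organoids against 451 and 410 in mimic organoids (log2 fold change 0.40, SE 0.10, adjusted p 0.0743).

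For the snoRNA hosts, none of 4 core genes of the box C/D particle passed in any of the 3 tests, with 2 higher at an unadjusted p under 0.05 (median 0.30). Nop56, a core protein of that particle, had 155 and 171 normalized CPM in control organoids against 234 and 194 in mimic organoids (log2 fold change 0.40, SE 0.12, adjusted p 0.105). None of 10 genes of nonsense-mediated decay passed in the quasi-likelihood test, with 2 higher and 1 lower at an unadjusted p under 0.05 (median 0.11). DESeq2 and the exact test passed 1, Smg5, which had 66.6 and 79.3 in control organoids against 106 and 103 in mimic organoids (log2 fold change 0.52, SE 0.11, adjusted p 0.0525). None of 30 genes of RNA polymerase III and its initiation factors passed in the quasi-likelihood test or DESeq2, with 2 higher and 1 lower at an unadjusted p under 0.05 (median 0.07). The exact test passed 1, Polr3gl, an alternative subunit of the enzyme, which had 16.6 and 15.2 against 9.23 and 11.9 (log2 fold change -0.59, SE 0.17, adjusted p 0.0938).

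None of the 14 tested genes in the list of neighbours passed in the quasi-likelihood test, with 3 higher and 1 lower at an unadjusted p under 0.05 (median 0.03). DESeq2 and the exact test each passed 3, Apex1, Gclc and Rcc1, all higher. A gene outside these lists lay inside Malat1 on the opposite strand, and it is named here after its values were seen. Gm37376, annotated as a 453-base transcript to be experimentally checked, had 5620 and 4112 counts in control organoids against 2318 and 2897 in mimic organoids (log2 fold change -0.85, SE 0.10, adjusted p 0.0106), and it passed with each library left out (adjusted p 0.00126 to 0.0234). Its ratio to Malat1 was 0.0272 and 0.0269 in control organoids against 0.0185 and 0.0212 in mimic organoids. Without a stated strand setting, reads of Gm37376 and of Malat1 cannot be told apart.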

How the data were processed

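Reads of 4 RNA-seq libraries were trimmed with Trimmomatic and quantified with RSEM on GRCm38 transcripts by the authors (versions not given in the sources used here). The authors deposited 2 tables, one of expected counts that were not normalized and one of TPM, and 3 further columns of each table matched no sample and were not used. Annotation came from GENCODE release 21 for mouse, which held 55227 of 55487 identifiers.

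Groups were compared on rounded expected counts by the quasi-likelihood test of edgeR 4.0.16 (R 4.3.3; filterByExpr and TMM factors). P-values were adjusted by Benjamini-Hochberg over 17155 genes, with thresholds of 0.05 and, where stated, a fold of 2. The SE is the log2 fold change divided by the root of F. The common biological coefficient of variation was 0.13. Steps were tested on simulated data. Chi-square divided by its degrees of freedom was 33.8 between controls and 18.3 between mimic libraries, so no library was a copy.

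DESeq2 1.42.0, edgeR's exact test and limma 3.58.1 on log2 TPM with pseudocounts of 1 and 0.1 (at least 1 TPM in 2 libraries), other scalings and filters, and leaving out libraries were alternatives. Related genes were named if they passed, and otherwise from the 2 tested genes with the largest change and the 2 with the highest count of each list. The noncoding RNA genes and lists were chosen with earlier results of these data known.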

Additional observations from a re-analysis of the deposited data

How the results depend on the processing

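No paired analysis was possible because the groups share no replicate number. In 144 of 160 refits of the 9 noncoding RNA genes the direction and the side of the threshold were kept. The log2 fold change of Rpph1 turned to -0.043 with upper quartile factors, -0.022 with scaling on protein-coding genes and -0.0036 with at least 10 counts in every library, and ran from -0.055 to 0.074 when 1 library was left out. That of Snhg1 turned to -0.030 with upper quartile factors and -0.0079 with scaling on protein-coding genes, and ran from -0.10 to 0.15 with 1 library left out, and that of Snhg12 ran from -0.039 to 0.15. The causes were not tested. With 1 library left out, the remaining one is assumed to vary like the other group.

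Noncoding RNA genes passing numbered 2 with DESeq2, 1 with edgeR's exact test and 0 to 1 when a library was left out (1 without control replicate 2 and without either mimic library).

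Over all genes, the numbers passing with a fold of at least 2 (101 higher and 253 lower, 612 without the fold) became 50, 108 and 192 without the count filter, 200, 530 and 1788 with the exact test, 30, 41 and 75 with limma on log2(TPM + 1), 11, 16 and 27 on log2(TPM + 0.1), and 2, 0 and 2 on log2(TPM + 1) without a filter. DESeq2 passed 1330 without the fold. With 1 library left out they ran from 115 to 230, from 166 to 661 and from 373 to 2365, the highest of each without control replicate 2 and the lowest of the last pair without mimic replicate 3.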
